A study of Sus scrofa with 2 samples.

Results

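The blood-rich spots of pig psoas major muscle were spatial transcriptomics spots selected on a measured value, namely that they held 10 or more UMIs (unique molecular identifiers, each standing for 1 captured RNA molecule) of HBB, the gene of haemoglobin beta. They numbered 271 of the 5308 spots kept, 116 of 2430 in section 1 and 155 of 2878 in section 2. Within each section they were set against spots with 0 HBB UMIs that had been matched on the total of all other UMIs, in bins of 0.5 on the log2 scale, so that deep spots were compared with deep spots. The question was which vessel, blood cell and muscle fibre genes went with haemoglobin RNA once HBB itself and the other haemoglobin genes were taken out of the tests and of the totals.

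The data came from 2 Visium capture areas on 1 slide, each holding a 15 µm section of psoas major from a female Landrace pig. The study describes this muscle as oxidative and slow. In total 2 pigs were used, and the labels give no treatment and no age. The 2 sections form a single group, so every comparison was made between spots inside a section and then carried across the pair. A Visium spot is a small patch of tissue that can cover parts of several fibres together with the vessels between them, so a blood-rich spot is a patch and not a cell. The p-values below rest on sums of UMIs per section and HBB class, with spots never counted as replicates. The spread they measure is how far the 2 sections differ in the steps between all HBB classes, those with a few HBB UMIs included, on 3 residual degrees of freedom, together with a spread estimated across genes.

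Haemoglobin is a tetramer of alpha-type and beta-type globin chains, each holding a haem group that binds oxygen. Mature mammalian red cells have no nucleus, and the youngest of them in the circulation, the reticulocytes, still carry RNA, most of which encodes globins and a few other late erythroid proteins. In skeletal muscle red cells run through capillaries that lie along the fibres and drain into venules, and slow oxidative fibres are known to be served by more capillaries than fast fibres. Haemoglobin RNA in a section can therefore mark places with blood. Whether that blood lay inside vessels or had spread from them was not tested.

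The values that chose the spots are given here as a description, with no test. HBB lies on chromosome 9 at 4800683 to 4801941 of the Sscrofa11.1 assembly (RefSeq gene model). In section 1 the 116 blood-rich spots held from 10 to 406 HBB UMIs each, with a median of 22.5, and in section 2 the 155 spots held from 10 to 408, with a median of 26. These spots carried 80.8% of all HBB UMIs of section 1 and 82.1% of those of section 2. HBB took 1.49% and 1.62% of the UMIs of the blood-rich spots, and in the most extreme spot of each section it took 17.2% and 17.9%. The distribution was steep in both animals. The 5 spots richest in HBB held 25.7% of the HBB UMIs of the blood-rich spots in section 1 and 22.0% in section 2.

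The threshold cut through a continuous range. Just outside it, the spots with 8 or 9 HBB UMIs (16 in section 1 and 17 in section 2) had medians of 3382 and 3115 UMIs. Just inside it, the spots with 10 or 11 HBB UMIs (14 and 12) had medians of 3422 and 3423 UMIs. Only 96 spots of section 1 and 106 of section 2 held 4 to 9 HBB UMIs, against 499 and 777 with 1 to 3 and 1719 and 1840 with none.

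A feature without a gene name, ENSSSCG00000007978, followed HBB from spot to spot. In the blood-rich spots it had 3111 UMIs in section 1 and 4729 in section 2, which was 84.8% and 86.1% of all its UMIs in the section. The ratio to HBB was nearly the same in the 2 animals, at 59.4 UMIs per 100 HBB UMIs in section 1 and 60.0 in section 2. In the depth-matched spots without HBB the feature had 20 and 41 UMIs. Because it behaved as a haemoglobin-type feature it was left out of the tests and totals as well, a choice made after its values were seen.

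**Figure D1:**
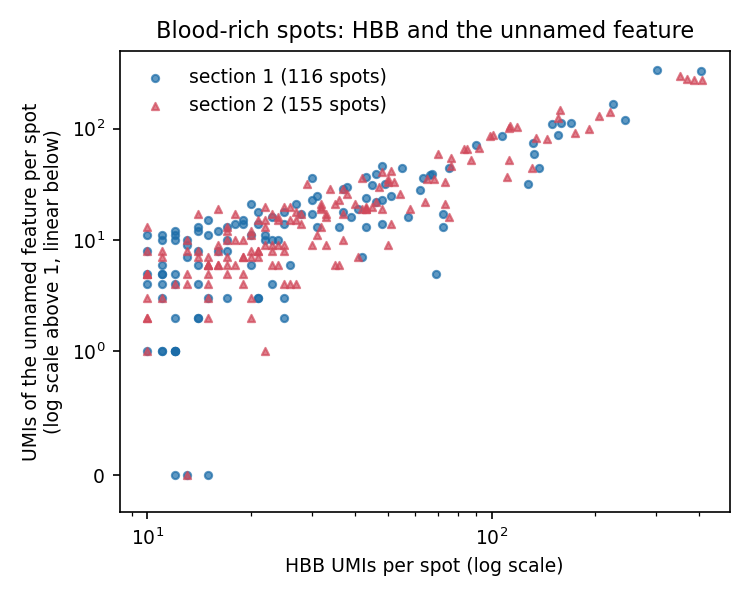
UMIs of the unnamed feature ENSSSCG00000007978 (vertical axis, log scale above 1) against HBB UMIs (horizontal axis, log scale) in each blood-rich spot, with circles for the 116 spots of section 1 and triangles for the 155 of section 2. The 2 sections lie on the same band, which follows the ratio of 59.4 and 60.0 UMIs per 100 HBB UMIs, and the richest spots reach 406 and 408 HBB UMIs.

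Of the other named globin genes, HBM, the mu chain of the alpha-globin cluster on chromosome 3 (41489312 to 41490110), was the next to be seen. It had 44 UMIs in 25 of the 116 blood-rich spots of section 1 and 68 UMIs in 40 of the 155 of section 2, or 8.40 and 8.63 UMIs per 1000 HBB UMIs. The depth-matched spots with 0 HBB UMIs held 0 HBM UMIs in both sections. A count of 0 among 114 and 152 spots allows, taking 3 spots as the limit, a share of spots with an HBM UMI of up to 2.63% and 1.97%, for counting error only. The embryonic and theta globin genes were close to absent, with HBE1 at 0 and 1 UMIs, HBQ1 at 1 and 0 and HBZ at 0 in the blood-rich spots of sections 1 and 2.

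The blood-rich spots were among the deeper ones of each section, which is why the match was needed. A cut at a fixed count favours deep spots, since a deep spot reaches 10 HBB UMIs at a smaller share of its UMIs than a shallow spot does. Their median total without haemoglobin was 3010 UMIs in section 1 and 3061 in section 2, while all spots with 0 HBB UMIs had medians of 595 and 821. Blood-rich spots made up 0.455% of the spots with 256 to 512 other UMIs in section 1 and 18.4% (exact 95% interval 12.4 to 25.8) of those with 4096 to 8192. In section 2 the same shares were 1.02% and 12.3% (9.0 to 16.3). In the other spots, which the cut holds to at most 9 HBB UMIs, HBB lay between 3.50 and 4.58 per 10000 UMIs in the depth bins of section 1 from 256 to 8192 UMIs, and between 3.09 and 4.79 in those of section 2. These depth values describe the selection and were not tested.

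After matching, 114 of the 116 blood-rich spots of section 1 and 152 of the 155 of section 2 had a partner, and the 5 without one were left out. The medians of the matched pairs were then 2936 against 3030 UMIs in section 1 and 3055 against 3058 in section 2. The mitochondrial share of UMIs had medians of 17.3% in the blood-rich and 18.7% in the matched spots of section 1, and 16.7% and 17.0% in section 2. Both sections were deposited with raw UMI counts of 3633249 and 5382677 in total. They share 2005 barcodes among the kept spots, 6 of them blood-rich in both, since a Visium barcode is fixed by its place on the capture area and so repeats on every area.

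Of 2845 genes tested, 4 rose in the blood-rich spots (0.141% of the genes tested) and 0 fell (0.0%), by edgeR's quasi-likelihood test at an adjusted p under 0.05. They were the erythroid genes ALAS2 and AHSP, with large differences, and the elongation factor EEF1A1 and the ferritin light chain FTL, with small ones. At an unadjusted p under 0.05, 97 genes were higher (3.41%) and 59 lower (2.07%). The median log2 fold change over all genes tested was 0.01. DESeq2's Wald test, which called 0 genes in either direction and had 14 higher and 2 lower at an unadjusted p under 0.05, ended all 4 calls, as did a fit to the blood-rich and HBB-free sums alone.

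ALAS2 encodes the erythroid form of 5-aminolevulinate synthase, the first and rate-limiting enzyme of haem synthesis, and lies on chromosome X (47871519 to 47896041). It had 29 UMIs in the blood-rich spots of section 1 and 39 in those of section 2, against 1 and 0 in the matched spots. In CPM (UMIs per 1000000 with haemoglobin left out, on normalised totals) these were levels of 87.3 and 85.7 against 3.0 and 0. The 2 sections did not overlap between the groups and were nearly equal within the blood-rich group. A lack of overlap between 2 and 2 values, here and below, is a description only. Its share over all genes tested was not counted. Over both sections the ratio was 67.2 (counting interval 11.7 to 2693), and edgeR gave an adjusted p of 1.00e-05. The spots with 1 to 3 HBB UMIs held 1 and 0 ALAS2 UMIs and those with 4 to 9 held 3 and 2, so the gene was concentrated where HBB was high. It was detected in 18.4% (11.8 to 26.8) of the blood-rich spots of section 1 and 13.8% (8.8 to 20.3) of those of section 2, against 0.877% and 0% of the matched spots.

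AHSP encodes the alpha-haemoglobin stabilising protein, a chaperone that binds free alpha chains in red cell precursors, and lies on chromosome 3 (17059340 to 17060343). It had 21 and 27 UMIs in the blood-rich spots of sections 1 and 2 and 0 and 1 in the matched spots, or 63.2 and 59.3 CPM against 0 and 2.25. The groups did not overlap. The ratio over both sections was 47.4 (counting interval 8.12 to 1913), with an edgeR adjusted p of 0.00345. AHSP was seen in 12.3% and 11.8% of the blood-rich spots and in 0% and 0.658% of the matched spots. Of 18 alternative settings, ALAS2 was called in 16 and AHSP in 15. The setting without a minimum of 15 spots per gene gave the same values as the main comparison. It therefore adds nothing to these tallies, nor to those of EEF1A1 and FTL below. Without the 5 spots richest in HBB of each section, AHSP was no longer called (adjusted p = 0.225), while ALAS2 was (adjusted p = 0.0166). Both genes reached the minimum count for testing only through the blood-rich sums, and both stayed called when that minimum was dropped.

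Relative to HBB, the erythroid genes held similar ratios in the 2 pigs. ALAS2 had 5.54 UMIs per 1000 HBB UMIs in the blood-rich spots of section 1 and 5.20 in those of section 2, and AHSP had 4.01 and 3.55. Split by HBB, ALAS2 had 22.5 and 14 CPM in the spots with 10 to 19 HBB UMIs, 80.6 and 28.0 CPM in those with 20 to 49, and 188 and 286 CPM in those with 50 or more. HBM moved in the same order, with 30.0 and 27.9, 121 and 60.7, and 293 and 443 CPM. AHSP had 52.4 and 0, 24.2 and 28.0, and 129 and 191 CPM, so its lowest level was in the middle range in section 1 and in the lowest range in section 2. These splits rest on counts as low as 0 to 7 UMIs per cell of the split and were not tested. They cannot tell more red cells in a spot from more RNA per red cell.

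EEF1A1, the factor that brings aminoacyl-tRNA to the ribosome (chromosome 1, 92421235 to 92425053), rose from 189 to 289 UMIs in section 1 and from 180 to 299 in section 2, or from 567 to 870 and from 405 to 657 CPM. The groups did not overlap, since the higher matched level, 567 CPM, lay below the lower blood-rich level, 657 CPM. The log2 fold change was 0.66 (SE 0.14; edgeR adjusted p = 0.0169). In section 2 the spots with 4 to 9 HBB UMIs, at 688 CPM, stood above the blood-rich ones. FTL, the light chain of the iron store ferritin (chromosome 6, 54231121 to 54232756), rose from 214 to 284 UMIs and from 295 to 429, or from 642 to 855 and from 663 to 943 CPM, without overlap between the groups. Its log2 fold change was 0.47 (SE 0.11; edgeR adjusted p = 0.0466). EEF1A1 was called in 9 and FTL in 7 of the 18 alternative settings, and neither was called without the 5 spots richest in HBB of each section. Neither was called when the unnamed feature ENSSSCG00000007978 was kept in tests and totals (edgeR adjusted p = 0.220 for each). Both calls therefore depended on a choice made after its values were seen. Both genes have processed copies in mammalian genomes, so their counts may be split or shared with such copies.

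**Figure D2:**
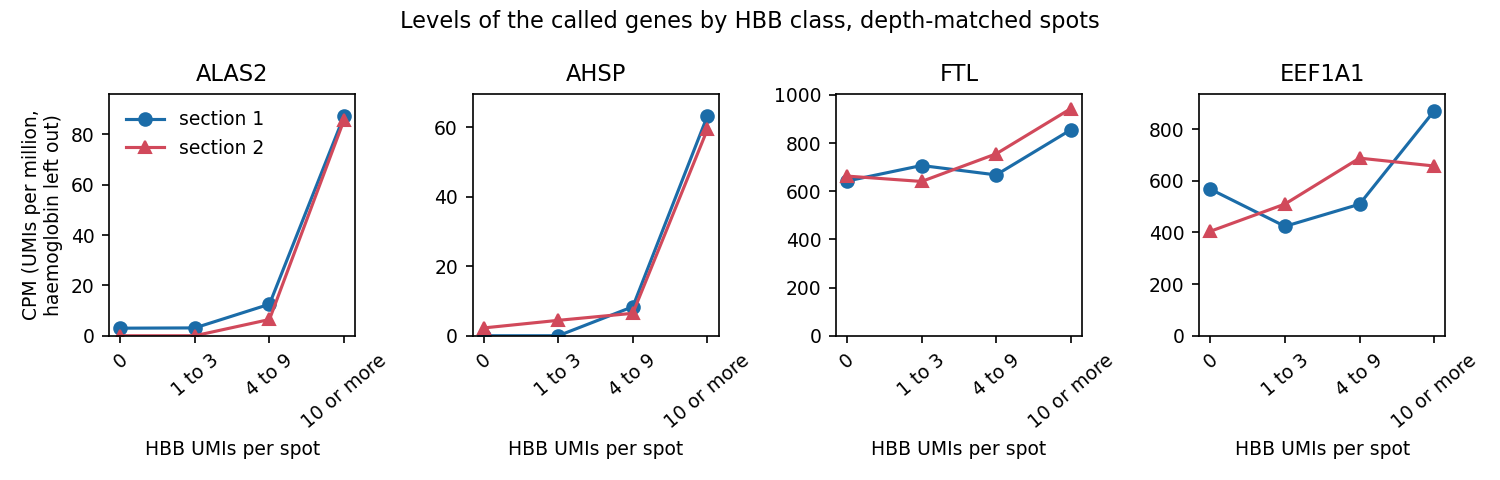
CPM (vertical axes, linear and from 0) of ALAS2, AHSP, FTL and EEF1A1 in depth-matched spots with 0, 1 to 3, 4 to 9 and 10 or more HBB UMIs (horizontal axes), with 1 line per section and 1 point per section sum, and no error bars. ALAS2 has 12.5 and 6.46 CPM and AHSP has 8.35 and 6.46 CPM with 4 to 9 HBB UMIs. In the last class they reach 87.3 and 85.7 and 63.2 and 59.3 CPM. FTL and EEF1A1 start from 642 and 663 and from 567 and 405 CPM.

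The remaining erythroid list gave little. Of 20 genes on the list 18 were in the files and 6 were tested, and 2 of the 6 rose. SPTB, the beta chain of spectrin under the red cell membrane, had 20 and 23 UMIs in the matched and 16 and 29 in the blood-rich spots. FECH, which inserts iron into haem, had 22 and 14 against 19 and 18. TFRC, the transferrin receptor, had 18 and 28 against 17 and 13. These genes are also expressed outside the red cell line. The genes at 0 in the blood-rich spots of both sections included SLC4A1, CA1, ANK1, EPB42, KLF1, RHAG and GATA1, which include the anion exchanger and the master transcription factors of the erythroid line.

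White cells and platelets did not come with the haemoglobin RNA at a level these counts could show. The 7 neutrophil genes in the files had 2 UMIs in the blood-rich spots of section 1 and 0 in those of section 2, against 1 and 0 in the matched spots, and S100A8, S100A12, MMP8, MMP9 and LTF were at 0 in the blood-rich spots. The 7 platelet genes had 4 and 12 UMIs against 7 and 8, all of them from ITGA2B, the integrin alpha IIb subunit, and PPBP, GP9, GP1BA, GP1BB, TUBB1 and TREML1 were at 0. The lymphocyte genes summed to 28 and 16 UMIs against 19 and 17. None of these lists had a gene past the test, and no neutrophil or platelet gene had enough UMIs to be tested.

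Macrophage and antigen presentation genes gave no calls in the main comparison. Of 5 monocyte and macrophage genes tested, 0 passed, and their summed level over the 15 genes in the files went from 285 to 403 CPM in section 1 and from 211 to 207 CPM in section 2. TYROBP, an adaptor of activating receptors on myeloid cells, had 13 and 33 UMIs in the matched and blood-rich spots of section 1 but 12 and 11 in those of section 2. HLA-DRA, the class II alpha chain, moved in the same opposed way, with 29 and 61 UMIs in section 1 and 50 and 37 in section 2. B2M, the light chain of class I molecules, was the steadier gene, with 385 and 523 UMIs in section 1 and 435 and 528 in section 2, a log2 fold change of 0.35 (SE 0.10; edgeR adjusted p = 0.244). It passed in 3 other matches, with bins of 0.25 (0.48, adjusted p = 0.0207), with bins of 1 (0.49, adjusted p = 3.20e-05) and with a match on depth and myosin class (0.48, adjusted p = 0.0117).

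Among endothelial genes several had more UMIs in the blood-rich spots of both animals, but none passed the test in the main comparison, and the few that passed under other settings are given beside their values. Of 24 pan-endothelial genes 11 were tested, and 8 of the 11 were higher in the blood-rich spots of both sections, against 26.8% of all genes tested. Their median log2 fold change was 0.50, beside 0.01 for all genes, with medians of 0.74 in section 1 and 0.27 in section 2. Low genes that met the count minimum mainly through the blood-rich sums enter such a count and such a median with an advantage. Neither is therefore a test of the list, and the sum over all 24 genes is the plainer value. It went from 790 to 1072 CPM in section 1 and from 647 to 756 CPM in section 2. In the spots with 1 to 3 and 4 to 9 HBB UMIs it was 769 and 593 CPM in section 1 and 701 and 713 CPM in section 2, below the blood-rich value in each.

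VWF, the von Willebrand factor that tethers platelets and is made by endothelial cells and megakaryocytes, had the smallest p of the pan-endothelial list. It had 13 UMIs in the matched spots of each section, and 32 and 28 UMIs in the blood-rich spots of sections 1 and 2. These were 39.0 and 29.2 CPM against 96.3 and 61.5 CPM, without overlap, and a log2 fold change of 1.19 (SE 0.35; edgeR adjusted p = 0.272). With another random draw of the matched spots it was 1.78 and passed (adjusted p = 0.0278). VWF did not climb steadily with HBB. The spots with 1 to 3 HBB UMIs had 40.5 and 48.8 CPM. Those with 4 to 9 had 16.7 and 19.4 CPM, below the HBB-free spots of both sections. ESAM, an adhesion molecule of endothelial junctions, had 11 and 8 UMIs against 22 and 18. ECSCR, a cell surface regulator of endothelial chemotaxis, had 6 and 2 against 17 and 7. PECAM1, the junctional protein used most often to mark endothelium, stood apart only in section 1, with 23 and 34 UMIs there and 34 and 35 in section 2. FLT1, a receptor for vascular endothelial growth factor, had 15 and 12 UMIs in the matched and 13 and 12 in the blood-rich spots. EPAS1 had 51 and 45 against 34 and 53, and EGFL7 had 29 and 27 against 25 and 31. Genes of the list that were not tested went both ways. CDH5 had 9 and 12 UMIs against 7 and 9 and ICAM2 had 9 and 5 against 4 and 3, while TIE1 had 1 and 2 against 5 and 5.

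The capillary genes were placed alike. All 9 were in the files and 6 were tested. Of the 6, 5 were higher in both sections, against 26.8% of all genes tested. Their median log2 fold change was 0.49, and none passed the test. The advantage of low genes applies to this count and to this median as well. The sum over the 9 genes went from 483 to 750 CPM in section 1 and from 447 to 574 CPM in section 2. With 1 to 3 and 4 to 9 HBB UMIs it was 473 and 522 CPM in section 1. In section 2 these were 463 and 500 CPM. FABP4, the fatty acid binding protein of capillary endothelium and fat cells, had 45 UMIs in the matched spots of each section and 92 and 64 in the blood-rich spots, a log2 fold change of 0.78 (SE 0.23; edgeR adjusted p = 0.272). It passed with members at 20 or more HBB UMIs (1.20, adjusted p = 0.0079) and with a match on depth and myosin class (1.23, adjusted p = 0.0365). None of the 3 fat cell genes tested passed, and the 7 genes of that list summed to 480 and 387 CPM in the matched and 439 and 415 CPM in the blood-rich spots. AQP1, the water channel of endothelium and red cells, had 29 and 34 UMIs against 45 and 47. BTNL9, a butyrophilin-like gene of capillary endothelium, had 2 and 4 against 9 and 10. CD36, a fatty acid transporter that muscle fibres also make, had 42 and 54 against 44 and 76. CAVIN2 had 19 and 28 against 22 and 26. Of the genes not tested, GPIHBP1 had 5 and 5 against 3 and 4, and CA4 had 6 and 5 against 11 and 7.

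Of the venous genes 1 was tested. ACKR1, the atypical chemokine receptor of venular endothelium that is also the Duffy antigen of human red cells (chromosome 4, 91224089 to 91225610), had 1 and 0 UMIs in the matched spots and 14 and 10 in the blood-rich spots. The groups did not overlap. The ratio over both sections was 23.7 (counting interval 3.87 to 976), but the gene did not pass, with an edgeR adjusted p of 0.187. It passed with no count filter (adjusted p = 0.00651) and with bins of 1 (adjusted p = 0.0408). In section 2 the 10 UMIs came from 4 spots, and 6 of them from a single spot. Along the HBB classes it had 1, 3, 5 and 14 UMIs in section 1 and 0, 3, 12 and 10 in section 2, so in section 2 the 99 spots of the class below the threshold held more than the 152 blood-rich spots. The 6 venous genes in the files together went from 36 to 108 CPM in section 1 and from 20.2 to 87.9 CPM in section 2. NR2F2, a transcription factor that sets venous identity, added 7 and 6 UMIs in the matched and 9 and 17 in the blood-rich spots. CXCL12, the only arterial gene tested, had 35 and 39 UMIs against 39 and 36, and the 9 arterial genes summed to 192 and 157 CPM in the matched and 148 and 127 CPM in the blood-rich spots.

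A further 3 genes outside the lists were picked out after their values were seen, from among the genes closest to the threshold. The choice did not follow the order of p. CLEC3B, with 21 and 17 UMIs in the matched and 57 and 34 in the blood-rich spots, stood as close (edgeR adjusted p = 0.150). It passed with bins of 1 (edgeR adjusted p = 0.0408). IGFBP7, an insulin-like growth factor binding protein secreted by endothelial and other cells, had 78 and 62 UMIs in the matched and 95 and 155 in the blood-rich spots (log2 fold change 0.79, SE 0.19; edgeR adjusted p = 0.0929). It passed with members at 20 or more HBB UMIs (edgeR adjusted p = 0.00706) and with bins of 1 (edgeR adjusted p = 0.00842). CCL19, a chemokine that draws T cells and dendritic cells, had 2 and 0 against 17 and 14 (edgeR adjusted p = 0.150), and 5 spots held 15 of the 17 UMIs of section 1. It passed with no count filter (edgeR adjusted p = 0.00213), with members at 20 or more HBB UMIs (0.00706) and with bins of 1 (0.00842). In section 2 the spots with 4 to 9 HBB UMIs held 15 CCL19 UMIs (48.4 CPM), above the blood-rich spots (30.8 CPM). PLAT, the tissue plasminogen activator that endothelial cells release to dissolve clots, had 3 and 0 against 18 and 16 (edgeR adjusted p = 0.182), and 5 spots held 15 of the 18 in section 1 and 14 of the 16 in section 2. It passed with no count filter (edgeR adjusted p = 0.00293) and with bins of 1 (0.018). Further genes looked at after the fact, such as MYOC and CFL1 (edgeR adjusted p = 0.272 for each), did not pass in the main comparison.

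Pericyte and smooth muscle genes, which mark the cells that wrap vessels, gave no calls in the main comparison. Of 9 pericyte genes 3 were tested and none passed, and RGS5, the usual pericyte marker, had 46 and 54 UMIs in the matched and 41 and 50 in the blood-rich spots. The smooth muscle genes went opposite ways in the 2 sections, with a median log2 difference of -0.53 in section 1 and 0.40 in section 2 over the 8 tested. ACTA2, smooth muscle actin, had 58 and 38 UMIs in the matched and blood-rich spots of section 1 and 23 and 53 in those of section 2. TAGLN, transgelin, had 114 and 75 in section 1 and 49 and 111 in section 2. With members at 20 or more HBB UMIs both genes passed, with log2 fold changes of 1.67 for ACTA2 (adjusted p = 0.00519) and 1.18 for TAGLN (adjusted p = 0.00671), against 0.14 and 0.16 in the main comparison. A single matched spot of section 1 held 40 of the 114 TAGLN UMIs and 23 of the 58 ACTA2 UMIs. None of the 8 genes differed in the same direction in both sections, against 26.8% of all genes higher and 23.7% lower in both.

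Connective tissue was mixed. Of 12 fibroblast and matrix genes tested 0 passed, and their median log2 fold change was 0.03. DCN, the collagen-binding proteoglycan decorin, was lower in both sections, with 119 and 133 UMIs in the matched and 73 and 97 in the blood-rich spots, a log2 fold change of -0.59 (SE 0.18; edgeR adjusted p = 0.272). It passed with bins of 1 (-0.65, adjusted p = 0.032) and with another random draw (-0.80, adjusted p = 0.0278). COL1A1, the main chain of type I collagen, was higher in both, with 7 and 11 UMIs against 13 and 28 (log2 fold change 1.15, SE 0.42; edgeR adjusted p = 0.596). Of 6 basement membrane genes tested 3 were lower in both sections, against 23.7% of all genes tested, and none passed.

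**Figure D3:**
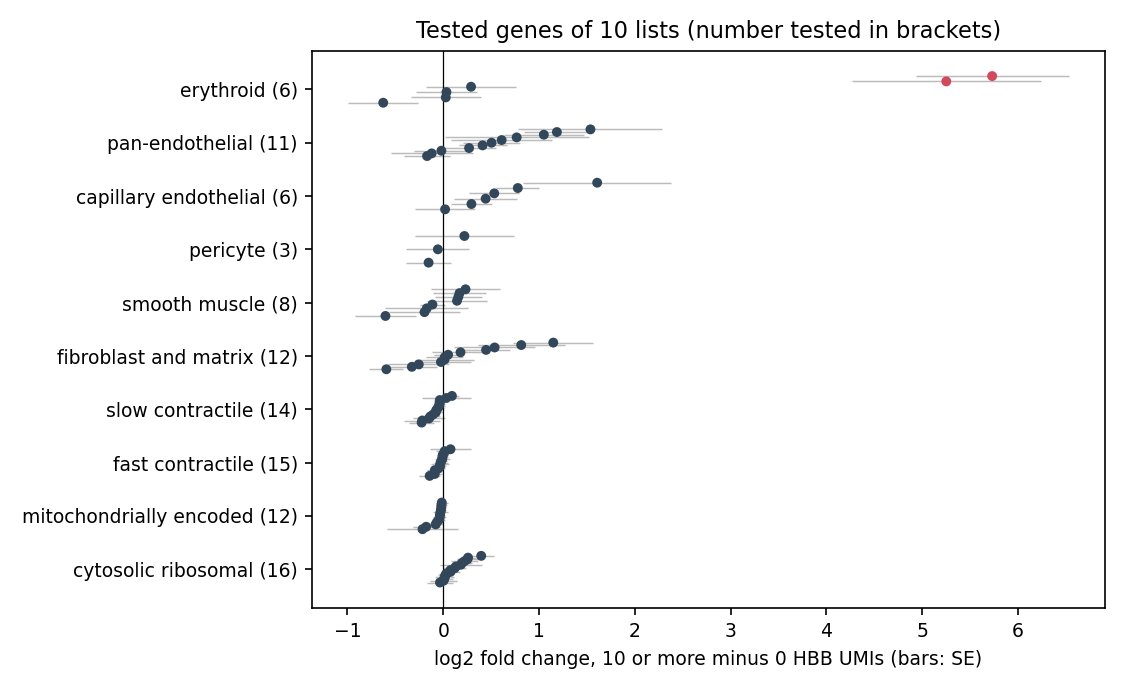
Log2 fold change of blood-rich minus matched HBB-free spots (horizontal axis) for each tested gene of 10 gene lists (rows), with bars of 1 SE and red points for genes past the edgeR test. ALAS2 and AHSP stand at 5.73 and 5.25, pan-endothelial and capillary genes have medians of 0.50 and 0.49, and the slow and fast contractile genes lie close to 0, with medians of -0.07 and -0.03.

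Fibre-type genes were examined to see whether blood-rich spots sat on particular fibres. Spots were put in fibre classes by their myosin heavy chain UMIs, with MYH7 the chain of slow type I fibres and MYH2 and MYH4 those of fast fibres; a spot was MYH7-dominant when MYH7 made up at least 0.75 of at least 5 such UMIs. Without a depth match the share of slow spots was larger among the blood-rich spots. Of those that could be classed, 60.5% (exact 95% interval 50.9 to 69.6) in section 1 and 55.6% (47.3 to 63.6) in section 2 were MYH7-dominant, against 38.2% (35.9 to 40.5) and 32.2% (30.3 to 34.2) of all other spots. After the match the shares lay inside each other's intervals, at 59.8% (50.1 to 69.0) of blood-rich and 61.1% (51.4 to 70.1) of HBB-free spots in section 1 and 54.7% (46.3 to 62.8) and 52.3% (44.0 to 60.6) in section 2. The mean difference over the 2 sections was 0.54 percentage points, which reached 5.11 with bins of 0.25 and 6.11 with members at 20 or more HBB UMIs, and the intervals, which cover counting error only, leave room for differences of several points in either direction.

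Depth and fibre class went together in these sections, so a match on depth also evened out the fibre classes, and the parts of the 2 cannot be fully told apart. The median total without haemoglobin was 2944 and 3594 UMIs in all MYH7-dominant spots of sections 1 and 2, and 764 and 985 in all MYH2/MYH4-dominant spots. The MYH2/MYH4-dominant spots were the more numerous, at 897 and 1324 against 731 and 821 MYH7-dominant ones. Relative to the total, HBB had 19.5 and 18.1 per 10000 UMIs in MYH7-dominant, 15.0 and 22.9 in mixed and 15.9 and 15.5 in MYH2/MYH4-dominant spots. At a depth of 2048 to 4096 UMIs, 8.21% (exact 95% interval 5.7 to 11.3) of the 402 MYH7-dominant and 12.9% (6.6 to 22.0) of the 85 MYH2/MYH4-dominant spots of section 1 were blood-rich. In section 2 the order was the opposite, with 11.6% (8.6 to 15.2) of 387 and 6.02% (3.2 to 10.1) of 216 spots. At 1024 to 2048 UMIs the order turned in each section, with 6.16% (2.9 to 11.4) of 146 and 5.09% (2.6 to 8.9) of 216 spots in section 1 and 2.06% (0.25 to 7.3) of 97 and 3.49% (1.9 to 5.8) of 401 in section 2. The intervals overlapped in all of these pairs.

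**Figure D4:**
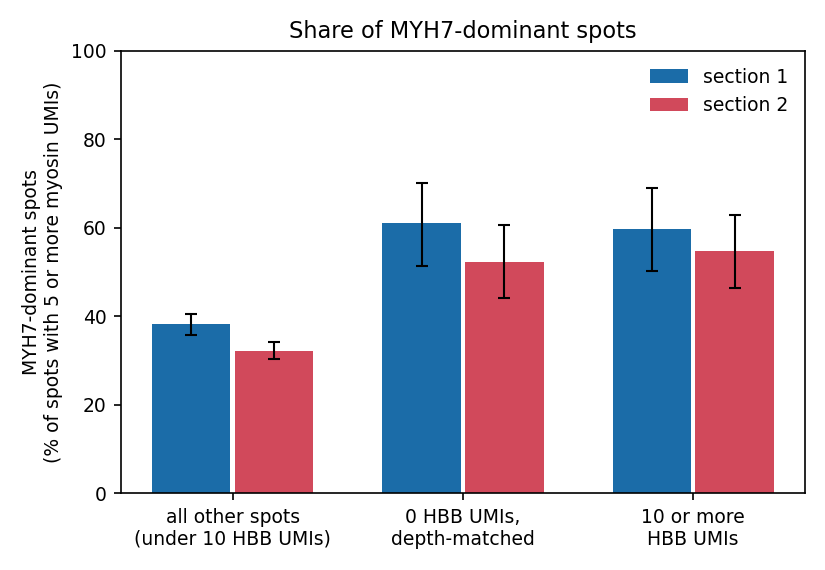
Percent of classed spots that were MYH7-dominant (bars, from 0, with exact 95% binomial intervals) among all other spots, depth-matched spots with 0 HBB UMIs and blood-rich spots, for section 1 and section 2. The blood-rich bars at 59.8% and 54.7% stand above all other spots at 38.2% and 32.2%, and beside the depth-matched bars at 61.1% and 52.3%.

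Gene by gene, the contractile genes were at nearly the same level in the matched and the blood-rich spots. MYH7 had 5830 and 7082 UMIs in the matched and 5554 and 7187 in the blood-rich spots, a log2 fold change of -0.04 (95% interval -0.15 to 0.08). MYH2 had 928 and 1581 against 928 and 1434, a log2 fold change of -0.09 (-0.24 to 0.06). It passed as lower with members at 20 or more HBB UMIs (-0.31, adjusted p = 0.0287) and with bins of 1 (-0.25, adjusted p = 0.0408). MYH4, the chain of the fastest fibres, had 130 and 162 against 121 and 194 (0.08, -0.34 to 0.49). None of the 14 slow and 15 fast contractile genes tested passed in the main comparison, and their medians were -0.07 and -0.03. Within that narrow range 9 of the 14 slow genes were lower in both sections, against 23.7% of all genes; MYL2, the slow regulatory light chain, for example had 5028 and 6254 UMIs against 4799 and 6029 (-0.07, -0.19 to 0.04).

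Mitochondrial and fuel genes were as close. None of the 12 mitochondrially encoded genes tested passed, with a median log2 fold change of -0.04. Of the 12, 10 were lower in both sections, against 23.7% of all genes tested. None of 32 nuclear genes of oxidative phosphorylation passed (median -0.02), nor any of 12 glycolytic genes (median -0.05) or 13 genes of fatty acid use (median -0.05). The cytosolic ribosomal genes had a median of 0.10, with 8 of 16 higher in both sections, against 26.8% of all genes tested, and none past the test. RPL7 had the smallest p among them, with 141 and 208 UMIs in the matched and 193 and 271 in the blood-rich spots, a log2 fold change of 0.40 (SE 0.13; edgeR adjusted p = 0.390). Of the 4 oxygen and haem handling genes tested FTL alone passed.

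Inside the blood-rich set, HBB by fibre class is given as a description only, since HBB chose the spots and the cut at 10 bounds every class from below. The median HBB count was 24.0 UMIs in the 69 MYH7-dominant and 21.0 in the 29 MYH2/MYH4-dominant blood-rich spots of section 1, and 26.0 in the 85 and 24.0 in the 49 such spots of section 2. The mixed spots had medians of 18.5 (16 spots) and 46.0 (19 spots). HBB took 1.36% and 1.27% of the UMIs of the MYH7-dominant and 2.05% and 2.31% of those of the MYH2/MYH4-dominant spots, whose median totals of 1847 and 1372 UMIs, against 3785 and 3904, make the same count a larger share. ALAS2 was found in both classes, with 22 and 23 UMIs in the MYH7-dominant and 4 and 8 in the MYH2/MYH4-dominant spots of sections 1 and 2.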

How the data were processed

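Visium sections of psoas major from 2 pigs were analysed. The authors deposited raw UMI counts per gene and spot from Space Ranger 1.1 with a custom Sscrofa11.1 reference (chromosome Y left out, older MYH2 and MYH4 models added; release of the Ensembl annotation given differently in labels and methods). The methods describe a removal of unreliable spots by hand. The deposited tables, with 2487 and 2939 spots, hold more spots than the study lists for its replicates. Spots that the study left out are therefore among those used here. Per the labels, porcine carrier RNA was used. Spot positions were not used here.

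Spots over 25% mitochondrial UMIs or in the lowest 2% of UMIs of a section were left out, as in the study's methods. Here this kept 5308 spots, more than the study kept, and dropped 2 blood-rich ones. Genes seen in under 15 spots of a section were left out. The study also removed highly expressed genes related to haemoglobin, which it treated as contamination by blood, whereas here HBB chose the spots. The HBB rule, the gene lists and the tests were chosen with earlier results of these data known. Members were matched to spots with 0, 1 to 3 and 4 to 9 HBB UMIs by seeded draws within bins of 0.5 log2 UMIs (totals without haemoglobin genes and without ENSSSCG00000007978), and UMIs were summed per section and class. Differences between these sums were fitted by edgeR 4.0.16 under R 4.3.3 (filterByExpr with a minimum count of 10, TMM factors, quasi-likelihood test, section as block, contrast of 10 or more minus 0, Benjamini-Hochberg over 2845 genes, 3 residual degrees of freedom), and DESeq2 1.42.0 was an alternative. The residual spread comes in part from the classes between. Of these, the class with 4 to 9 HBB UMIs gave only 86 and 99 drawn spots, against 114 and 152 blood-rich ones. The block pairs the classes that come from the same animal. The pipeline was tested on simulated data. CPM are UMIs per 1000000 on TMM-scaled totals, except in splits of the blood-rich spots by HBB count, where totals were not scaled; SE is edgeR's log2 fold change divided by the root of its test statistic, and 95% intervals of log2 fold changes come from it. Counting intervals of ratios are exact conditional intervals on the UMIs, and shares have exact Clopper-Pearson intervals; both cover counting error only.

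Genes eligible to be named were up to 10 called genes per direction with the same sign in both sections and at least 20 UMIs in each, up to 4 genes of each list by p, all tested vessel and erythroid genes, and the haemoglobin and myosin genes as levels. Some eligible genes, tested vessel and erythroid genes among them, are not given in the text. List members that were not tested are given as UMIs, and some are not reported here. Coordinates are RefSeq's for Sscrofa11.1. Of 31780 features 15086 have no symbol, and 796 of these were named from the reference table. Alternatives were other scalings, tools, filters, thresholds, matches and draws. After the data were seen, 3 were added: the unnamed feature kept, no minimum of 15 spots, and the 5 members richest in HBB left out.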

Additional observations from a re-analysis of the deposited data

How the results depend on the processing

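With 4 genes higher and 0 lower in the main comparison, the count of higher genes was 0 with DESeq2, 0 with the blood-rich and HBB-free sums alone, 1 without the 5 members richest in HBB of each section, 2 with members at 5 or more HBB UMIs, 2 with all HBB-free spots weighted per bin, 7 with no count filter, 11 (and 2 lower, DCN and MYH2) with bins of 1, and 13 (and 1 lower, MYH2) with members at 20 or more HBB UMIs. Another random draw added 1 lower gene, DCN. With the unnamed feature kept in tests and totals the count was 3 higher (ALAS2, AHSP and the feature itself) and 0 lower. Without the section as block, which pairs the classes of the same animal, it was 2 higher (ALAS2 and AHSP) and 0 lower. Without any depth match it was 74 higher and 91 lower, and the log2 fold changes of ATP2A1 (-0.78), FHL1 (0.24), MYL2 (0.41), MYOZ2 (0.43) and RPLP1 (-0.26) turned to the other sign and were called. These counts do not share 1 base, since the number of genes tested differed. It was 2845 in the main comparison, 12786 with no count filter and 5295 without a depth match. It was 4258 with members at 5 or more, 2405 at 20 or more, 3228 with weighting and 2928 with bins of 1. ALAS2 and AHSP kept a positive log2 fold change under the 18 alternatives that keep both sections, from 5.23 to 8.0 and from 4.36 to 5.62, with adjusted p from 1.03e-21 to 0.417 and from 2.04e-14 to 0.833. Leaving out each section in turn gave 4.30 (without section 2) to 6.27 for ALAS2 and 4.16 (without section 1) to 5.43 for AHSP. The difference in MYH7-dominant share was 4.68 percentage points with members at 5 or more, 6.11 at 20 or more, 5.11 with bins of 0.25, 4.65 with bins of 1 and 31.96 with no depth match, and leaving out each section in turn gave -1.24 to 2.32. Leaving out a section leaves no residual degrees of freedom, so single genes then have values but no test and no count of calls. The depth, with matched medians of 2936 to 3058 UMIs per spot, limits what can be said of leukocyte, platelet and venous genes. The cause of these differences between settings was not tested.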
